A study of Arabidopsis thaliana with 26 samples.

Results

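Leaves of a pif5 knockout line were compared with leaves of the parent accession Col-0 of Arabidopsis thaliana after both had spent 1 day in darkness. The comparison holds 6 of the 26 arrays of the study, 3 of pif5 and 3 of Col-0, chosen by their labels for genotype and day. All 26676 rows of the deposited table, each a probe set with its log2 value, entered every test. The pif5 plants carry a knockout of PIF5, listed as pif5-621, and the Col-0 plants carry no mutation in the labels. Plants of both genotypes grew at 22 °C with 8 h of light and 16 h of darkness. On each plant 2 fully expanded leaves were enclosed in foil-coated covers while the remaining rosette kept its daily cycle, and blades were taken at noon. Besides day 1 (pif5, then Col-0, 3 arrays each), the series holds leaves in light (day 0), day 3 and day 6 with 3 arrays for each genotype, and day 12 with 2 arrays for pif5 only. A single knockout line stands for the loss of PIF5.

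PIF5 is a phytochrome-interacting factor, a basic helix-loop-helix transcription factor. Light-activated phytochromes bind such factors and lead to their breakdown, so that they build up in darkness. In leaves, PIF4 and PIF5 are known to promote dark-induced senescence, the programme in which chlorophyll and protein are degraded and nutrients are moved out of the leaf. A single leaf kept dark on a plant in the light enters that programme within days, which makes the first day an early stage.

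The 6 arrays held values from 2.38 to 13.4 on the log2 scale, with medians between 4.3 and 4.32. Arrays of 1 genotype differed from each other by a root mean square of 0.252 to 0.289 over all rows (6 pairs, r = 0.983 to 0.987 across rows). Arrays of different genotypes differed by 0.318 to 0.355 (9 pairs, r = 0.975 to 0.980 across rows). The rows of 1 array are not independent replicates, so these correlations describe the arrays and carry no test. Gene names in the platform annotation could not be relied on: 9 rows named for photosynthesis genes, which are abundant in leaves, lay at a median percentile of 71.6 in light (10.1 to 98.1), and 3 of the 9 fell in both genotypes at day 1. Rows are therefore given by their identifier in the table, without a gene name or a function. For the same reason the level of PIF5 and the markers of leaf and of other tissues were not analysed here, and the genotype and tissue labels were taken as given.

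After 1 dark day, 908 of the 26676 rows differed between pif5 and Col-0 leaves at an adjusted p under 0.05, which is 3.4% of all rows. Of these, 420 were higher (1.57%) and 488 lower (1.83%) in pif5. Most of the differences were small: the median was 0.69 on the log2 scale among the higher rows and -0.65 among the lower rows. A difference of at least 2-fold was found in 156 of the 908 rows, 74 higher and 82 lower in pif5. The longer tail lay on the lower side. Differences of at least 2 on the log2 scale numbered 4 higher and 10 lower rows, and differences of at least 2.5 numbered 0 higher and 5 lower rows. In these whole-leaf samples fewer cells of a type and less RNA per cell cannot be told apart.

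The test was limma's moderated linear model over all groups, with p-values adjusted by the Benjamini-Hochberg method over all rows. The median standard error of a difference was 0.138 over all rows and 0.145 over the 908, and the smallest difference that passed was 0.36 in size. Just inside the threshold, row 13454876 differed by 0.44 with a limma adjusted p of 0.0499, and just outside it row 13540998 differed by 0.53 with a limma adjusted p of 0.0503. In 883 of the 908 rows (97.2%) the 3 pif5 arrays did not overlap the 3 Col-0 arrays, beside 17.1% of all rows. The rows were chosen on these same arrays, so the separation describes them and is no further support. Fitted on the 6 arrays alone, 576 rows passed, and without Col-0 day 1 replicate 2, 555 rows passed.

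**Figure D1:**
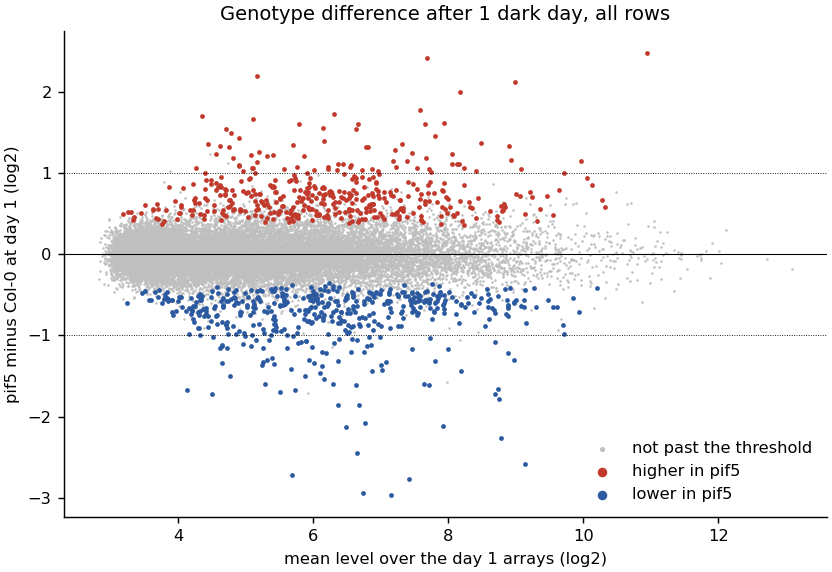
Each point is 1 of the 26676 rows. The horizontal axis gives its mean level over the 6 arrays of day 1 (log2) and the vertical axis the pif5 minus Col-0 difference (log2), with the 420 higher and 488 lower rows coloured and dotted lines at a 2-fold difference. The points reach 2.48 above 0 and 2.96 below it.

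Rows with higher levels in light passed more often. When all rows were sorted by their mean over the arrays in light, which are not part of the comparison, and divided into 4 equal bins of 6669 rows, 32, 133, 263 and 480 rows passed at day 1 from the lowest bin to the highest. These are 0.480%, 1.99%, 3.94% and 7.20% of each bin. The top bin held 52.9% of all rows that passed, 243 of them higher and 237 lower in pif5. In the lowest bin 11 were higher and 21 lower. The median standard error was 0.131 in the lowest bin and 0.135 in the highest.

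The 12 rows that were lower in pif5 by the largest amounts differed by 3.62-fold to 7.79-fold, with limma adjusted p-values from 1.2e-12 to 0.00082. Between the genotypes in light, none of the 12 differed by more than 0.32 on the log2 scale. In pif5, 10 of the 12 rose during the first dark day and 2 fell, and in Col-0, 11 rose. Over all rows the day changed 35.0% in pif5 (16.7% rose) and 38.2% in Col-0 (19.4% rose). In the 10 rows that rose in both genotypes, the rise was smaller in pif5. The 12 rows were chosen as far below Col-0 at day 1, and they lay close to it in light. The smaller rise therefore follows from the choice and is not a further result. All 12, like the 12 higher rows below, were drawn from passing rows whose arrays did not overlap between the genotypes. Their separate day 1 groups follow from that choice too.

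Row 13398143 had values of 5.53, 5.87 and 5.63 in pif5 at day 1, against 8.50, 8.96 and 8.46 in Col-0. The highest pif5 array was more than 2 log2 units below the lowest Col-0 array. The difference was -2.96 (SE 0.16, limma adjusted p = 1.2e-12). In light the same row had 3.86, 4.21 and 4.05 in pif5 and 4.1, 4.43 and 4.25 in Col-0, so the genotypes started from overlapping levels. On day 3 it averaged 7.28 ± 0.21 in pif5 and 9.27 ± 0.16 in Col-0 (SD, n = 3 each). On day 6 the means were 8.02 ± 0.08 in pif5 and 8.77 ± 0.25 in Col-0 (SD, n = 3 each). The gap was widest on the first of these days and was -0.75 by day 6.

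Row 13496789 had 5.09, 5.11 and 5.61 in pif5 and 8.37, 8.40 and 7.88 in Col-0 (difference -2.94, SE 0.18, limma adjusted p = 2.9e-11). Row 13334833 had 6.27, 5.82 and 6.02 in pif5 and 9.03, 8.82 and 8.58 in Col-0 (difference -2.77, SE 0.17, limma adjusted p = 2.9e-11). All 3 pif5 arrays lay below all 3 Col-0 arrays in both rows, and the pif5 mean of both was higher at day 3 and again at day 6. Row 13334833 averaged 7.09 in pif5 and 9.25 in Col-0 at day 3, and 7.89 in pif5 and 9.03 in Col-0 at day 6.

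A different course was seen in row 13506941. Its values were 3.95, 4.47 and 4.57 in pif5 and 6.55, 7.75 and 6.85 in Col-0 at day 1 (difference -2.72, SE 0.23, limma adjusted p = 1.8e-08). Later, pif5 averaged 4.63 ± 0.24 on day 3 and 3.69 ± 0.24 on day 6 (SD, n = 3 each), with a mean of 3.54 ± 0.39 in light. Col-0 averaged 7.66 ± 0.30 on day 3 and 9.23 ± 0.22 on day 6 (SD, n = 3 each). The day 6 difference was -5.54 (limma adjusted p = 3.9e-16).

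Of the other rows among these 12, rows 13460442 and 13416440 fell in pif5 during the first day. Row 13460442 had 6.77, 6.67 and 7.15 in pif5 at day 1, against 9.24, 9.07 and 8.62 in Col-0 (difference -2.11, SE 0.23, limma adjusted p = 1.3e-06). Its light values of 8.98, 8.36 and 8.33 in pif5 and 8.50, 8.12 and 8.18 in Col-0 overlapped. Row 13416440 had 5.88, 5.19 and 6.18 in pif5 and 7.91, 7.82 and 7.08 in Col-0 (difference -1.86, SE 0.25, limma adjusted p = 2.1e-05). In that row Col-0 did not change past the threshold over the day (0.56, limma adjusted p = 0.077), whereas pif5 fell by 1.44.

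The remaining lower rows were led by row 13498760, with 8.02, 7.57 and 7.96 in pif5 and 10.54, 10.83 and 9.94 in Col-0 (difference -2.59, SE 0.28, limma adjusted p = 1.5e-06). Row 13442633 had 5.23, 5.42 and 5.64 in pif5 and 8.09, 8.11 and 7.42 in Col-0 (difference -2.45, SE 0.18, limma adjusted p = 1.2e-09). Both rows kept all pif5 arrays below all Col-0 arrays. At day 6 the difference in row 13442633 was -0.17 (limma adjusted p = 0.57), and in row 13498760 it was -1.47 (limma adjusted p = 0.00015). Rows 13400058 and 13422378 differed by -2.13 and -2.08 at day 1, and by -2.31 and -0.51 at day 6.

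The 12 rows that were higher in pif5 by the largest amounts differed by 3.04-fold to 5.56-fold, with limma adjusted p-values from 2.8e-06 to 0.0048. They were more mixed in how they reached that state. In light the largest difference among them was 0.999, in row 13434831, which did not pass there (limma adjusted p = 0.57). The change over the day differed past the threshold between the genotypes in 7 of these 12 rows, and in all 12 of the lower rows. Over all rows it did so in 0.858%. In pif5, 8 of the 12 rose over the first day and 3 fell, and in Col-0, 3 rose and 4 fell. Among all rows 16.7% rose and 18.4% fell in pif5, and 19.4% rose and 18.8% fell in Col-0. The day 1 arrays chose these 12 rows, so the counts only describe them. The pif5 day 1 replicate 2 array held the highest value of its group in 9 of the 12 rows. Among the 12 lower rows, Col-0 day 1 replicate 2 was the highest of its group in 8 and Col-0 replicate 3 in 0.

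Row 13368287 had 12.04, 12.68 and 11.82 in pif5, against 9.21, 9.70 and 10.21 in Col-0. All pif5 arrays were above all Col-0 arrays, and the difference was 2.48 (SE 0.44, limma adjusted p = 0.00090). Its light values spread widely, with 8.07, 8.46 and 6.96 in pif5 and 6.03, 7.99 and 8.23 in Col-0. It rose in both genotypes over the day, by 4.35 in pif5 and 2.29 in Col-0, and the difference between these rises did not pass (2.06, limma adjusted p = 0.14).

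Row 13519611 instead fell in both. It had 8.99, 8.57 and 9.12 in pif5 and 6.71, 6.95 and 5.78 in Col-0 at day 1 (difference 2.42, SE 0.28, limma adjusted p = 2.8e-06), and in light 10.43, 10.30 and 10.02 in pif5 and 9.89, 10.08 and 9.98 in Col-0. The day 1 groups were apart by more than 1 log2 unit, and the light groups overlapped. Thereafter the row averaged 7.68 in pif5 and 4.71 in Col-0 at day 3, and 6.96 in pif5 and 3.61 in Col-0 at day 6, so that the difference grew to 3.35 (limma adjusted p = 1.8e-10). Row 13444562 likewise started at 9.63, 10.05 and 9.60 in pif5 and 9.57, 10.23 and 9.90 in Col-0. It stood at 8.04, 8.73 and 8.61 in pif5 and 6.53, 7.02 and 7.01 in Col-0 after the dark day (difference 1.61, SE 0.23, limma adjusted p = 7.6e-05). Its pif5 arrays were all above its Col-0 arrays, and its difference was smaller later, at 0.93 on day 3 and 0.62 on day 6.

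Row 13478705 rose in both genotypes, to 8.40, 8.81 and 8.22 in pif5 and 6.74, 6.55 and 6.80 in Col-0 (difference 1.78, SE 0.21, limma adjusted p = 4.6e-06), against light means of 4.31 in pif5 and 3.95 in Col-0. Row 13478486 reached 9.08, 9.15 and 8.01 in pif5 and 7.18, 7.23 and 6.99 in Col-0 (difference 1.61, SE 0.24, limma adjusted p = 9.6e-05). Neither row had overlapping groups. At day 6 row 13478486 was lower in pif5, by -1.57 (limma adjusted p = 5.9e-06), while row 13478705 was still higher, by 1.3. Row 13344956 held its level in light more closely in pif5, with 6.79, 7.28 and 7.46, against 5.70, 5.88 and 4.77 in Col-0 (difference 1.73, SE 0.31, limma adjusted p = 0.00086). Its Col-0 level fell by 1.65 over the day, and its pif5 change of 0.11 did not pass (limma adjusted p = 0.84). All pif5 arrays of that row lay above all Col-0 arrays. Row 13434831, the last of the 12, had 7.59, 6.83 and 7.99 in pif5 and 6.13, 5.59 and 5.89 in Col-0 (difference 1.60, SE 0.29, limma adjusted p = 0.0012). Its groups did not overlap at day 1, and its interaction did not pass (0.60, limma adjusted p = 0.69).

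In 5 of these rows pif5 day 1 replicate 2 stood more than 1 log2 unit above the other pif5 arrays. Row 13542220 had 5.50, 7.76 and 5.53 in pif5 and 3.96, 4.12 and 4.13 in Col-0 (difference 2.19, SE 0.35, limma adjusted p = 0.00026). Row 13432527 had 4.68, 6.62 and 4.31 in pif5 and 3.38, 3.02 and 4.08 in Col-0 (difference 1.71, SE 0.35, limma adjusted p = 0.0034). Row 13489048 had 5.31, 7.26 and 5.27 in pif5 and 4.39, 4.54 and 3.92 in Col-0 (difference 1.66, SE 0.35, limma adjusted p = 0.0048). Without that array the 3 rows differed by 1.44, 1.00 and 1.01, and each still passed. The same array was also the highest in row 13397554 (8.78, 10.12 and 8.61 in pif5, 7.05, 7.28 and 7.20 in Col-0, difference 1.99) and row 13424383 (9.78, 10.79 and 9.57 in pif5, 7.53, 7.84 and 8.39 in Col-0, difference 2.13). Without it row 13424383 differed by 1.75 and no longer passed (limma adjusted p = 0.0503). With all arrays, the interactions of rows 13432527, 13489048 and 13424383 did not pass (limma adjusted p = 0.10, 0.20 and 0.11).

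**Figure D2:**
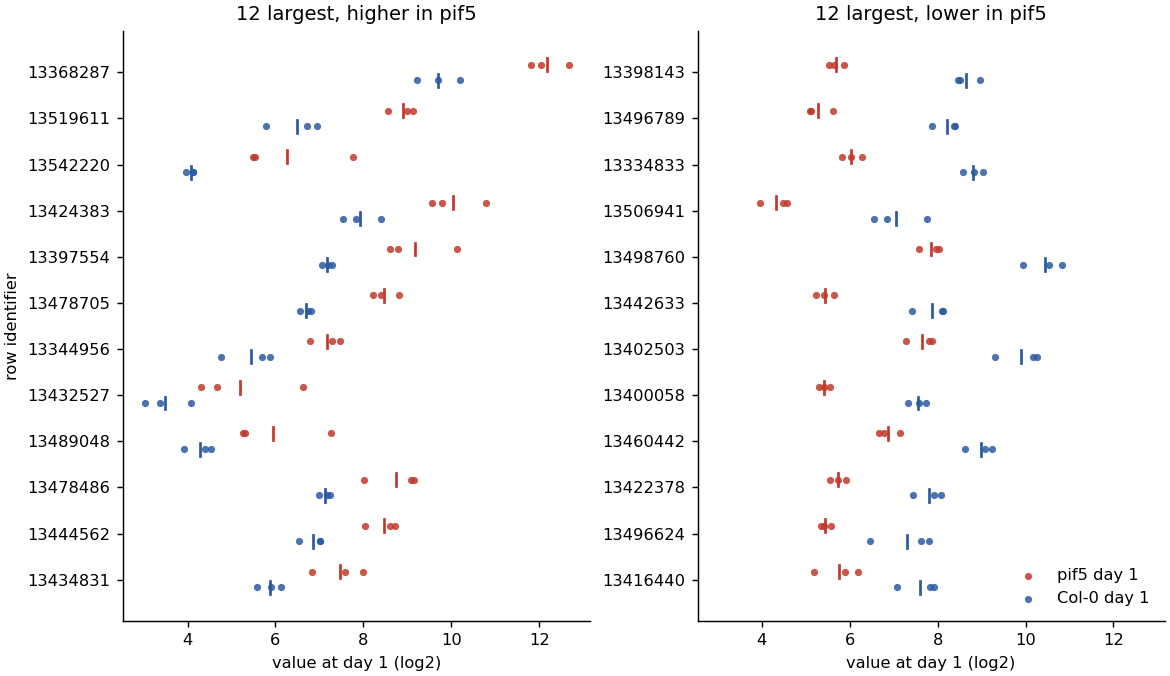
Values of single arrays at day 1 (log2, horizontal axis) are shown for the 12 rows highest in pif5 (left panel) and the 12 lowest in pif5 (right panel), with short vertical bars at the group means of 3 arrays. The 3 pif5 points and the 3 Col-0 points are separate in each of the 24 rows because only such rows were chosen. In row 13542220 the pif5 array at 7.76 stands apart from those at 5.50 and 5.53.

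In light the genotypes were much closer. There, 9 rows passed (0.0337% of all rows), 3 higher (0.0112%) and 6 lower (0.0225%) in pif5, and 1501 rows had an unadjusted p under 0.05. At day 1, 3858 rows (14.5%) had one. Of the 9 rows, 6 also passed at day 1 with the same sign, where 1.57% of all rows passed as higher and 1.83% as lower. Row 13351718 was the furthest above Col-0, with 4.92, 4.76 and 5.0 in pif5 and 3.54, 3.85 and 3.44 in Col-0 in light (difference 1.28, limma adjusted p = 0.0025). At day 1 it had 5.19, 5.56 and 5.83 in pif5 and 3.61, 4.0 and 4.50 in Col-0 (difference 1.49, SE 0.19, limma adjusted p = 1.4e-05), and at day 6 the difference was 2.2. Its groups overlapped at none of these times. Rows 13492600 and 13353454 differed by 0.87 and 0.61 in light and by 0.85 and 0.80 at day 1. Row 13492600 rose by about the same amount in both genotypes, 2.53 in pif5 and 2.54 in Col-0, and at day 6 its difference was 0.14 (limma adjusted p = 0.50).

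Among the rows lower in pif5 in light, rows 13538159, 13513375 and 13536365 were lower at day 1 too, by -0.48, -0.58 and -0.71. The other three did not pass at day 1. Row 13458159 differed by -0.82 in light and by -0.33 at day 1 (limma adjusted p = 0.11). Row 13469073 had 4.66, 5.10 and 4.92 in pif5 and 6.61, 5.61 and 5.93 in Col-0 in light, and 3.8, 3.72 and 4.1 in pif5 and 3.66, 3.52 and 3.87 in Col-0 at day 1. Its light groups were separate and its day 1 groups overlapped. Row 13388797 had 6.15, 6.32 and 6.16 in pif5 and 7.29, 7.59 and 7.37 in Col-0 in light, and 4.12, 3.37 and 4.09 in pif5 and 4.21, 4.02 and 4.23 in Col-0 at day 1. After that shared fall its pif5 mean was 3.69 at day 3 and 3.70 at day 6, its Col-0 mean was 6.53 and 8.43, and the day 6 difference was -4.73 (limma adjusted p = 1.5e-16). Without Col-0 day 0 replicate 1, 30 rows passed in light.

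Of the 908 rows that differed at day 1, 496 (54.6%) had a difference of the same sign in light, on arrays that the day 1 comparison does not use. These were 269 of the 420 higher rows (64.0%) and 227 of the 488 lower rows (46.5%), where the difference in light was positive in 53.6% of all rows. The median light difference was 0.07 in the 420 higher rows and 0.02 in the 488 lower rows, beside 0.01 over all rows. The difference in size was tested for each row as an interaction, the change from light to day 1 in pif5 minus that in Col-0. By this test 229 rows passed (0.858% of all rows), 88 more positive (0.33%) and 141 more negative (0.529%) in pif5, with a median size of 1.07. Of the 229, 209 also differed at day 1, where 3.4% of all rows did. The interaction uses the same day 1 arrays, so that overlap is not separate evidence. Leaving out 1 array gave 129 to 300 rows, the lowest without Col-0 day 0 replicate 2. Without pif5 day 1 replicate 2 there were 132 rows, without pif5 day 0 replicate 3 there were 140, and without pif5 day 0 replicate 1 there were 152.

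The most frequent pattern among these 229 rows was a smaller increase, or none, in pif5. The interaction subtracts the same Col-0 change that sorts the rows here. A Col-0 rise is thus favoured beside a more negative interaction, and a Col-0 fall beside a more positive one. The counts describe the rows and are no test of a weaker response. Over all rows 19.4% rose and 18.8% fell in Col-0. In 110 rows Col-0 rose over the first dark day and the pif5 change was more negative. Within these, pif5 also rose in 57 rows, did not pass in 42 and fell in 11. In 56 rows Col-0 fell and the pif5 change was more positive, with a passing fall in pif5 in 26 rows, no passing change in 23 and a passing rise in 7. In 13 rows both rose with the pif5 change more positive, and in 6 rows both fell with the pif5 change more negative. Col-0 did not pass in 44 rows, of which 25 fell and 19 rose in pif5.

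The 3 most negative differences in response were in row 13496789 (-3.00, limma adjusted p = 9.6e-08), row 13398143 (-2.74, limma adjusted p = 3.5e-08) and row 13334833 (-2.63, limma adjusted p = 3.1e-07). Over the day these rows rose by 1.32, 1.64 and 1.33 in pif5, and by 4.32, 4.38 and 3.96 in Col-0. The 3 most positive were in row 13542220 (2.34, limma adjusted p = 0.016), row 13519611 (2.15, limma adjusted p = 0.0037) and row 13397554 (2.00, limma adjusted p = 0.042). Rows 13542220 and 13397554 rose in pif5, by 3.01 and 2.44, and did not pass in Col-0, where the changes were 0.67 and 0.44. The interaction of row 13397554 no longer passed without pif5 day 1 replicate 2 (1.52, limma adjusted p = 0.15), any Col-0 day 1 array, pif5 day 0 replicate 1 or 3, or Col-0 day 0 replicate 2 or 3 (1.75 to 2.09, limma adjusted p = 0.064 to 0.15). That of row 13542220 no longer passed without Col-0 day 0 replicate 3 (2.13, limma adjusted p = 0.058).

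**Figure D3:**
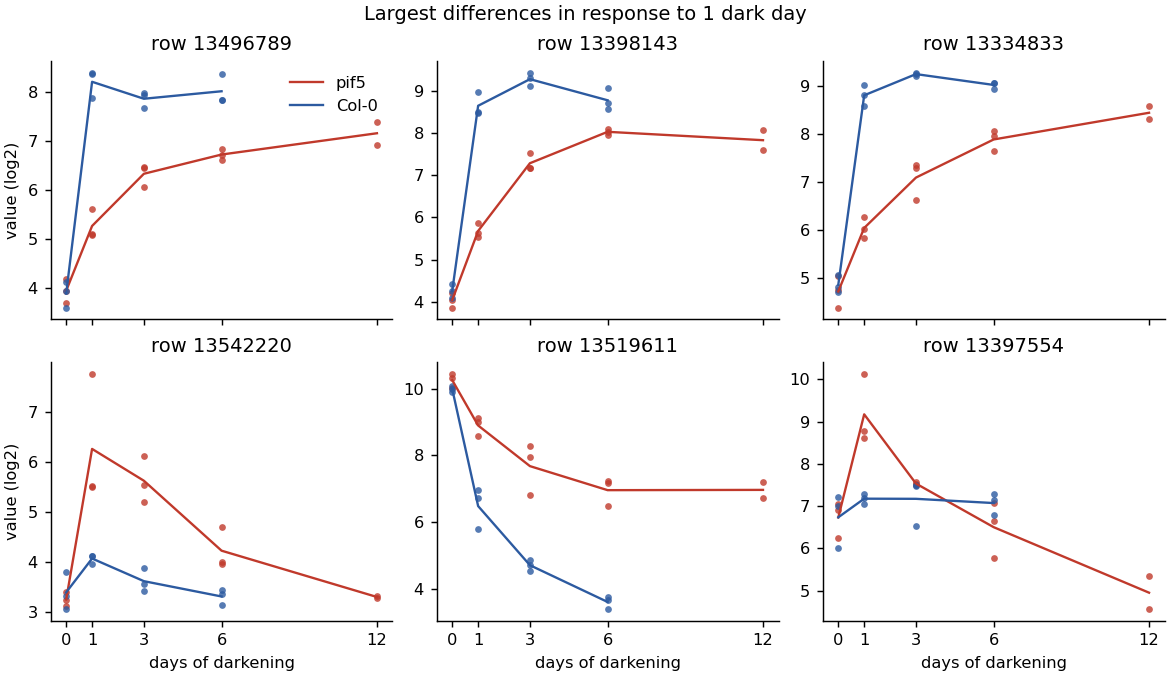
Values (log2, vertical axis) of the 3 rows with the most negative (top) and the 3 with the most positive (bottom) difference in response are plotted against days of darkening, with points for arrays and lines through the means of each genotype. In the top panels pif5 stays below Col-0 after day 1 while both are above their light level. In the panel of row 13519611 both genotypes decline and pif5 stays above Col-0.

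The later days use other arrays of the same genotypes, and show how long the day 1 differences lasted. Their limma tests share with day 1 the spread from 1 fit over all arrays, so passing at several days is not fully separate. At day 3, 4889 rows (18.3%) differed between pif5 and Col-0, and at day 6, 8419 rows (31.6%). Rows that differed at day 1 made up 10.2% of the day 3 rows and 7.07% of the day 6 rows, beside 3.4% of all rows. Both shares are capped by the list sizes, since only 908 rows passed at day 1. Of the 908 rows, 662 (72.9%) had the same sign at day 3 and 641 (70.6%) at day 6. The higher rows kept their sign in 77.9% of cases at day 3 and 71.0% at day 6, and the lower rows in 68.6% and 70.3%. The difference was positive in 46.7% of all rows at day 3 and in 48.4% at day 6. Among the 908, rows that passed with the same sign numbered 421 at day 3 and 467 at day 6. Those that passed with the opposite sign numbered 79 and 128.

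Rows higher in pif5 at day 1 passed as higher again in 195 of 420 cases at day 3 (46.4%) and 206 at day 6 (49.0%), where 8.53% and 13.8% of all rows were higher. Rows lower in pif5 passed as lower again in 226 of 488 cases at day 3 (46.3%) and 261 at day 6 (53.5%), where 9.8% and 17.8% of all rows were lower. With the opposite sign at day 3, 10 of the 420 higher rows (2.38%) passed as lower, where 9.8% of all rows did. Of the 488 lower rows, 69 (14.1%) passed as higher, where 8.53% of all rows did. The median difference of the higher rows was 0.07 in light, 0.69 at day 1, 0.39 at day 3 and 0.37 at day 6. For the lower rows it was 0.02, -0.65, -0.32 and -0.42.

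**Figure D4:**
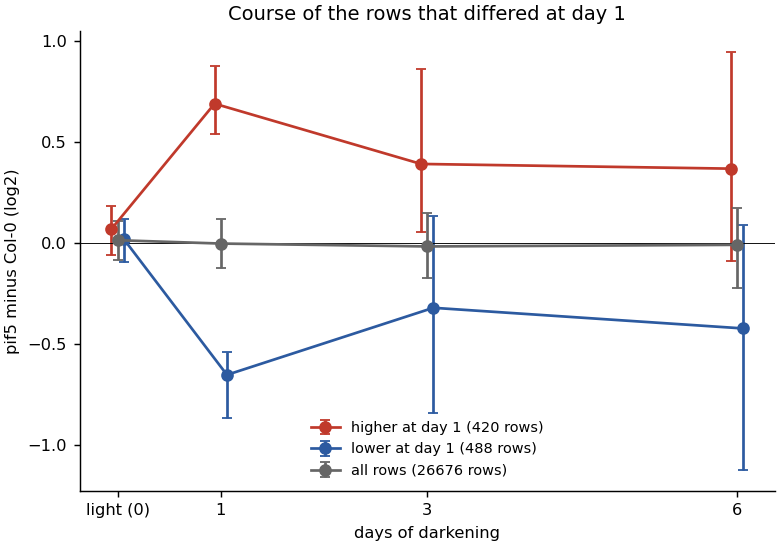
The median pif5 minus Col-0 difference (log2, vertical axis) is plotted against days of darkening for the 420 rows higher at day 1, the 488 rows lower at day 1 and all rows, with bars from the lower to the upper quartile. Day 1 chose the rows, so its points are extreme by choice. At day 3 and day 6 the medians of both sets lie on the same side of 0 as at day 1.

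The medians cover several courses, of which 3 are given here. In the first, 369 rows (40.6%) passed with the same sign at days 1, 3 and 6, and their median difference was larger at the later days. Of these, 165 were higher in pif5, with medians of 0.69, 0.96 and 1.1 at the 3 days, and 204 were lower, with medians of -0.65, -0.94 and -1.24. The difference was larger at day 6 than at day 1 in 130 of the 165 and in 167 of the 204. In the second, 247 rows (27.2%) passed at day 1 and at neither later day, 135 of them higher and 112 lower in pif5. Over all rows 18.3% passed at day 3 and 31.6% at day 6. The shares of all rows passing at both days or at neither are not given here, so these counts only describe the rows. In the third, 128 rows passed at day 6 with the opposite sign. These were 49 of the 420 higher rows (11.7%), where 17.8% of all rows were lower at day 6, and 79 of the 488 lower rows (16.2%), where 13.8% of all rows were higher. The first share is below that of all rows and the second near it, so the count is not a result about the day 1 rows. The 49 that were higher at day 1 had medians of 0.72, -0.18 and -0.80 at days 1, 3 and 6, and the 79 that were lower had medians of -0.71, 0.57 and 0.94. The other 164 rows followed none of these courses. Each set was chosen by the same values that its medians describe.

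Of the rows that passed with the opposite sign at day 6, row 13402503 had the largest difference on that day. It had 7.86, 7.27 and 7.81 in pif5 and 10.26, 10.16 and 9.30 in Col-0 at day 1 (difference -2.26, SE 0.40, limma adjusted p = 0.00082). At day 6 it had 7.69, 8.20 and 8.46 in pif5 and 4.03, 4.21 and 5.15 in Col-0 (difference 3.65, limma adjusted p = 2.7e-08). The Col-0 peak of the first day was gone by day 6, and the pif5 arrays lay below all Col-0 arrays at day 1 and above all of them at day 6. Row 13496624, another of the 12 lowest, also crossed over, with 5.41, 5.57 and 5.35 in pif5 and 7.62, 7.81 and 6.47 in Col-0 at day 1, and means of 6.62 in pif5 and 4.52 in Col-0 at day 6. Its differences were -1.86 at day 1 (limma adjusted p = 1.9e-05) and 2.1 at day 6 (limma adjusted p = 8.8e-08).

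The opposite order held in row 13428867. It had 5.14, 4.80 and 5.22 in pif5 and 4.35, 4.16 and 4.17 in Col-0 at day 1 (difference 0.83, SE 0.15, limma adjusted p = 0.0010), and 3.64, 4.32 and 4.21 in pif5 and 7.84, 7.33 and 7.69 in Col-0 at day 6 (difference -3.57, limma adjusted p = 3.6e-16). The pif5 arrays were the higher ones on the first day and the lower ones on the sixth. Row 13337918 had 7.38, 7.27 and 7.66 in pif5 and 8.35, 8.15 and 7.95 in Col-0 at day 1 (difference -0.71, SE 0.18, limma adjusted p = 0.018), and means of 6.98 in pif5 and 4.42 in Col-0 at day 6 (difference 2.56). Its day 1 call was lost without either of pif5 day 1 replicates 1 and 2 or Col-0 day 1 replicates 1 and 2, where the difference lay between -0.71 and -0.62 with limma adjusted p-values from 0.062 to 0.11.

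The 3 rows with the highest levels in light among the 908 were rows 13492986, 13495692 and 13464360, all 3 higher in pif5 at day 1. Row 13492986 had 8.40, 8.34 and 8.43 in pif5 and 7.77, 7.80 and 8.08 in Col-0 at day 1, with light means of 11.96 in pif5 and 11.75 in Col-0. Its difference was 0.51 at day 1 (SE 0.12, limma adjusted p = 0.0095), 1.19 at day 3 and 0.79 at day 6. Row 13495692 had 8.85, 8.87 and 8.92 in pif5 and 8.31, 8.24 and 8.50 in Col-0 (difference 0.53, SE 0.12, limma adjusted p = 0.011), and 2.08 separated the genotypes at day 6. Row 13464360 had 10.52, 10.51 and 10.79 in pif5 and 10.1, 10.07 and 9.92 in Col-0 (difference 0.58, SE 0.12, limma adjusted p = 0.0053). All 3 rows fell in both genotypes, and by more in Col-0, although none of the 3 interactions passed (limma adjusted p = 0.16 to 0.58). Leaving out Col-0 day 1 replicate 1 or 2 ended the day 1 calls of rows 13492986 and 13495692 (0.45 to 0.51, limma adjusted p = 0.051 to 0.073).

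Measured from each genotype's own leaves in light, the 488 lower rows had a median change of 0.00 in pif5 and 0.69 in Col-0 over the first day. Of these 488, 145 rose and 151 fell in pif5, whereas 316 rose and 50 fell in Col-0. The 420 higher rows had a median change of 0.21 in pif5, where 186 rose and 130 fell, and of -0.36 in Col-0, where 86 rose and 212 fell. Over all rows 16.7% rose and 18.4% fell in pif5 and 19.4% rose and 18.8% fell in Col-0. These changes share the day 1 arrays with the comparison that chose the rows, so they describe the rows and are not further support.

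The change from light to day 3 gives a view whose compared means share no array with day 1. The limma tests of both take their spread from 1 fit over all arrays. Counts of passing rows are thus not fully separate, whereas the signs are. By day 3, 35.4% of all rows had changed in pif5 and 45.5% in Col-0. In Col-0, 1754 rows rose (6.58%) and 2521 fell (9.45%) at least 2-fold by day 3, and 14550 rows did not pass. Of the rows that rose, 47 (2.68%) were higher and 154 (8.78%) lower in pif5 at day 1, and by sign alone 669 were higher and 1085 lower. Of the rows that fell, 150 (5.95%) were higher and 69 (2.74%) lower in pif5, and by sign alone 1483 were higher and 1038 lower. Among the rows with no passing change, 97 (0.667%) were higher and 126 (0.866%) lower. Among the rows that rose in Col-0 by day 3, more were lower than higher in pif5 on the first day, and among those that fell, more were higher.

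Sorted by the pif5 change instead, 1065 rows rose (3.99%) and 1974 fell (7.4%) at least 2-fold by day 3. Of the rows that rose in pif5, 61 (5.73%) were higher and 71 (6.67%) lower in pif5 at day 1, and of the rows that fell, 101 (5.12%) were higher and 55 (2.79%) lower. The 61 and 71 stand in about the same proportion as the 420 and 488 over all rows, and by sign alone 565 of the rows that rose in pif5 were higher and 500 lower. The counts are descriptions, and the contrast between the sortings was not tested. With single arrays of day 1 left out, the 47 became 24 to 57, the 154 became 101 to 146, the 150 became 100 to 120 and the 69 became 30 to 81. In each of these repeats the rows that rose in Col-0 were more often lower in pif5 and those that fell more often higher. The 47 became 24 without pif5 day 1 replicate 1 or Col-0 day 1 replicate 2, and 27 without Col-0 day 1 replicate 1. The 154 became 101 without Col-0 day 1 replicate 1 or replicate 2. The 69 became 37, 39, 34 and 30 without pif5 day 1 replicates 1 and 2 and Col-0 day 1 replicates 1 and 2, in that order. The labels give no light leaves of later days, so darkening and elapsed time cannot be told apart in the changes from light.

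**Figure D5:**
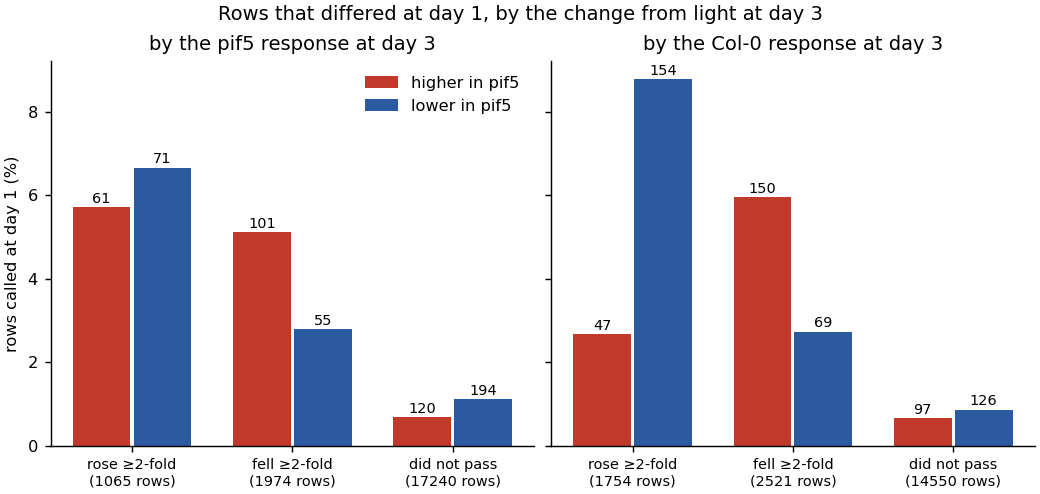
Bars give the percentage of rows that were higher or lower in pif5 at day 1, with the number of rows above each bar, for rows sorted by their change from light to day 3 in pif5 (left) or in Col-0 (right). Among rows that rose in Col-0 the bar for lower in pif5 stands at 8.78% and that for higher at 2.68%. Among rows that rose in pif5 the bars stand at 6.67% and 5.73%.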

How the data were processed

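Leaf RNA was measured on 26 arrays. The authors deposited 1 table of log2 values for 26676 probe sets, made with the package oligo (version not given) per the submitters' processing notes. The sources used here do not state background correction, normalization, scan batches or genome build. The values were used without further scaling. The number of arrays limits the precision.

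Samples were grouped by their labels, which do not state whether replicate arrays came from different plants. P-values therefore cover only how far these arrays differ, a spread that may be technical. All 9 groups entered 1 limma 3.58.1 fit in R 4.3.3 (lmFit, contrasts.fit, eBayes, 17 residual degrees of freedom). Contrasts were pif5 minus Col-0 at each day, the interaction at day 1, and days against light. P-values were adjusted by Benjamini-Hochberg over all rows at 0.05. The model was tested on simulated data.

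The comparison, lists and named rows were chosen with earlier results of these data known. Named are the 12 highest and 12 lowest day 1 differences among passing rows without overlap, all rows passing in light, the 3 most positive and 3 most negative interactions, the 3 passing rows highest in light, and the 3 with the largest opposite difference at day 6. That gave 38 rows. Row 13454876 and row 13540998 mark the threshold.

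Annotation listed 1 gene for 16179 rows, several for 588 and none for 9909, and symbols of 16067 rows could be updated. Names were to be used if rows named for photosynthesis lay above percentile 90 in light and fell in both genotypes at day 1, which they did not. A second condition on ribosomal protein genes could not be evaluated, with 0 rows matched. The 178 symbols of 9 gene lists, with 31 matching rows, were therefore not used.

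Alternatives were quantile normalization, median centring, the compared groups alone, leaving out rows below the median level, a replicate block, eBayes with trend, and leaving out single arrays. Leaving out arrays for the light comparison, the later signs and the day 3 sorting was chosen after seeing the data.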

Additional observations from a re-analysis of the deposited data

Results flagged for a closer look

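The change over the first dark day differed between pif5 and Col-0 in 229 rows by the interaction test, with limma adjusted p-values under 0.05. The largest such differences, pif5 change minus Col-0 change on the log2 scale, were 2.34 in row 13542220, 2.15 in row 13519611 and 2.00 in row 13397554 on the positive side. On the negative side they were -3.00 in row 13496789, -2.74 in row 13398143 and -2.63 in row 13334833. Single arrays were not tested as outliers of their groups of 3.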

How the results depend on the processing

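The number of rows that differed between pif5 and Col-0 at day 1, 908 in the fit over all groups, was 576 in a fit of the 6 arrays alone, which has 4 residual degrees of freedom, and 523 rows were shared. It was 555 to 847 with 1 of the 6 arrays left out, and 925 to 1101 under quantile normalization, median centring, the filter on low levels, the trend and the block. The 229 rows with a different response became 129 to 300 with 1 array left out and 172 to 252 otherwise. The 9 rows in light became 7 to 30 with 1 array left out, the 30 without Col-0 day 0 replicate 1. The share of day 1 rows with the same sign at day 3 was 67.1% to 77.8%, and at day 6 65.4% to 75.6%, with 1 day 1 array left out. Of the rows that passed, 46.3% were higher in pif5, against 49.8% with quantile normalization, 50.5% with median centring and 40.6% without Col-0 day 1 replicate 3. The cause of these shifts was not tested.

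For named rows, 44 values were repeated 536 times: the direction was never reversed, and 31 repeats, spread over 11 values, lost the call. In the named rows with a day 1 call the groups did not overlap. Leaving out 1 array could therefore not reverse their day 1 direction, and the lack of reversals is no support. In the fit of the compared groups alone, rows 13432527 and 13492986 lost their day 1 call (limma adjusted p = 0.063 and 0.067), as did the interactions of rows 13542220 and 13397554 (0.067 and 0.065). The lost calls were 11 repeats in 5 day 1 values, 9 in 4 light values and 11 in 2 interactions. Of the 6 light values with a day 1 call, rows 13353454, 13538159 and 13513375 lost their call in light without 1 or another array. With the replicate number as a block, 958 rows passed at day 1, 238 in the interaction and 11 in light. The deviations of same-numbered day 1 arrays correlated at 0.184, 0.106 and 0.0149 across rows, and those of different-numbered ones at -0.141 to 0.0316. At day 1, pif5 replicates 1 and 2 correlated best with their own number, and pif5 replicate 3 with Col-0 replicate 2. In light, same-numbered arrays correlated at -0.0078, 0.172 and -0.023. These values do not settle whether the numbers mark pairs, and the main fit did not take them as pairs. Signal over background was not analysed here.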
